A study of Mus musculus with 9 samples.

Results

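The genes described here are 10 genes that brain endothelial cells express, Notch4, Nos3, Cdh5, Pecam1, Cldn5, Flt1, Tek, Kdr, Sox17 and Slco1a4, among 26602 genes with a count in the midbrain of DJ-1+/+ (WT) and DJ-1-/- (KO) mice. They were looked up by symbol, and all 10 were counted in every mouse. The list was selected on earlier results of these same libraries, in which the counts of Notch4 in particular differed between the genotypes, so the differences between genotypes in these 10 genes are given as a description without a test. The midbrain pieces, which took in the substantia nigra, were from animals 3 to 4 months old, 4 of them DJ-1+/+ and 5 DJ-1-/-, each with a library of its own. KO mice carry a targeted Park7 allele in every tissue, backcrossed to C57BL/6, and both genotypes were bred from heterozygous parents and shared cages. Endothelial cells were not sorted, so a difference in the number of endothelial cells and one in RNA per endothelial cell cannot be told apart.

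Endothelial cells line every blood vessel, and in the brain they form the blood-brain barrier, where tight junctions seal the space between cells and transporters decide what crosses. Vascular endothelial growth factor acts on them through the receptors encoded by Flt1 and Kdr, and angiopoietins act through the receptor encoded by Tek. Notch4 is a Notch receptor found mainly on endothelium. A Notch receptor is cleaved once a ligand on a neighbouring cell binds it, and the released part acts in the nucleus with Rbpj. Nos3 encodes endothelial nitric oxide synthase, whose product relaxes the muscle cells of the vessel wall.

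The libraries were 3′ mRNA-seq libraries, in which each transcript yields a fragment near its polyadenylated end, so a count does not grow with transcript length. Values are counts of unique molecular identifiers, tags that let PCR copies be counted once, and cpm is the count for each 1000000 counts in the library. Library totals ran from 841974 to 886085 in WT and from 967751 to 1098125 in KO mice, so depth and genotype cannot be told apart between libraries. A level of 3 counts, the smallest taken as shown, corresponded to 2.73 to 3.56 cpm, which covers counting error only. WT replicates 1 and 4 stood apart by markers of tissue next to the midbrain, cerebellar neurons in the first and choroid plexus in the second. KO replicate 5 resembled WT replicate 4 in Lef1 (95 and 111 counts, against 8 to 31 in the other mice). Gch1 had 14 and 6 counts in these mice, against 27 to 52 in the others. Their deviations from the genotype mean correlated at 0.357, the highest of the pairs across genotypes. Whether this reflects the tissue taken was not tested. The most abundant gene had 1040 to 1359 counts and the mitochondrial gene mt-Co1 340 to 417, and whether abundant genes were compressed in counting was not tested. Park7, the targeted gene, was at 135 ± 15.7 cpm (SD, n = 4) in WT and 20.4 ± 4.54 cpm (SD, n = 5) in KO mice. It was the single gene of 18127 tested, or 0.00552%, with an adjusted p under 0.05 (adjusted p = 7.39e-08, edgeR quasi-likelihood).

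Notch4 and Nos3 stood apart from the other genes of the list. Notch4 had 5, 7, 8 and 8 counts in the WT mice and 13, 18, 19, 14 and 20 counts in the KO mice, in the order of replicate number. Every KO mouse was above every WT mouse. As cpm this was 8.06 ± 1.53 (SD, n = 4) and 16.6 ± 2.95 (SD, n = 5), a ratio of 2.06, with values from 5.94 to 9.31 in WT and from 13.0 to 19.6 in KO mice. The fitted log2 fold change of KO against WT mice (log2FC) was 1.03, with a standard error (SE) of 0.29. Notch4 was also the lowest of the 10 genes, and all 4 WT values rest on fewer than 10 counts. The variance of its counts around the genotype means was 0.403 times that of counting error alone. A spread this small can make the SE of 0.29 smaller than counting error alone would give.

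Nos3 had 21, 15, 23 and 24 counts in the WT mice and 40, 42, 29, 27 and 34 counts in the KO mice. Its level was 24.0 ± 4.70 cpm (SD, n = 4) and 33.8 ± 5.22 cpm (SD, n = 5), a ratio of 1.41. The genotypes did not overlap, but the gap was small, with 27.1 cpm in the highest WT mouse and 27.9 cpm in the lowest KO mouse. The log2FC was 0.50 (SE 0.20).

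Thus 2 of the 10 genes did not overlap between the genotypes, both higher in KO mice, where 0.662% of all genes tested did so in that direction and 1.25% in either. Since the list was selected on this contrast, nothing is read from this count.

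**Figure D1:**
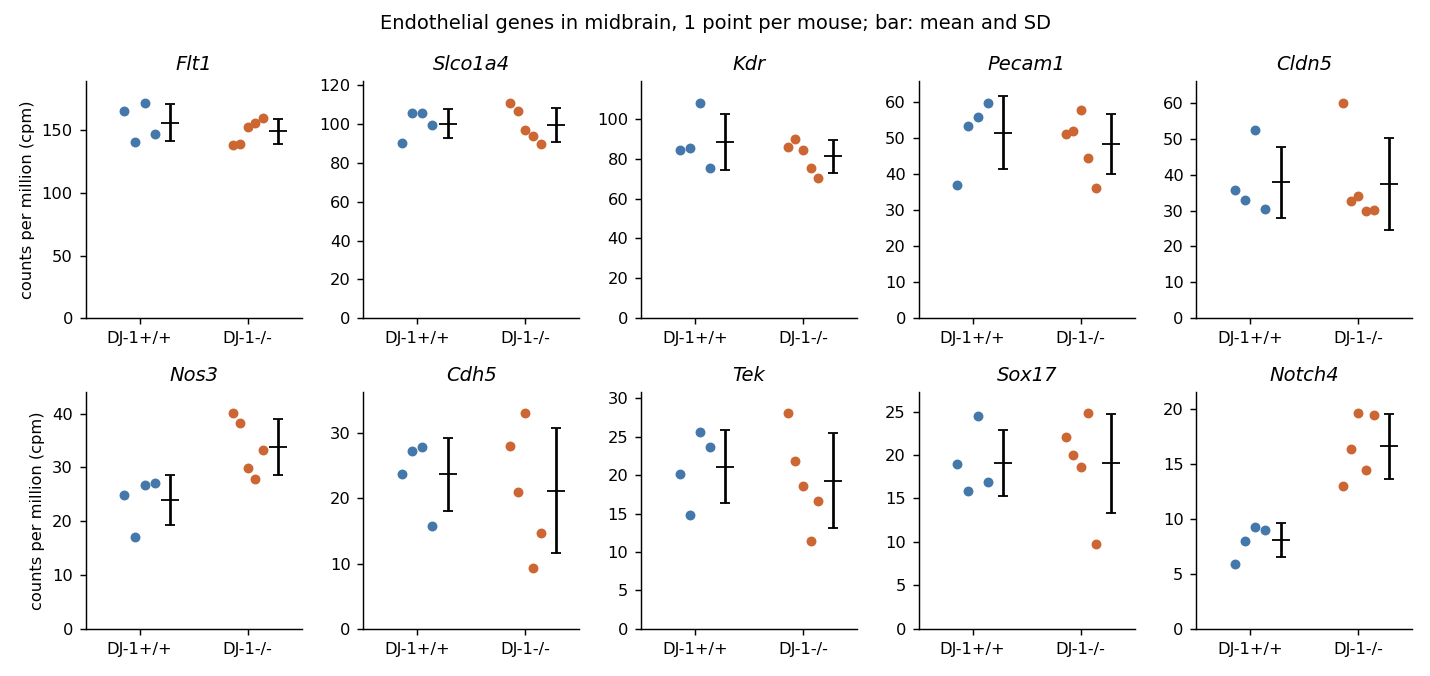
Expression of the 10 endothelial genes in midbrain, in cpm on the vertical axis, with 1 point per mouse, DJ-1+/+ (WT, n = 4) in blue and DJ-1-/- (KO, n = 5) in orange, ordered from the highest mean level (Flt1) to the lowest (Notch4). The black bars are the mean and SD. Notch4 and Nos3 are the panels in which the genotypes do not overlap.

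On GRCm38, Notch4 lies on chromosome 17 from 34564268 to 34588503 (plus strand) and overlaps the pseudogene Gm20462, which had no count. Nos3 lies on chromosome 5 from 24364810 to 24384474 (plus strand). Its 3′ end lies under 294 bases of Atg9b, an autophagy gene on the other strand, which had 5, 11, 3 and 8 counts in WT and 19, 9, 14, 12 and 4 counts in KO mice. The strand setting used in counting is not given in the sources used here, so reads of Nos3 and Atg9b near that end cannot be told apart. Cdh5 lies on chromosome 8 from 104101625 to 104144511, Tek on chromosome 4, as does Park7, from 94739289 to 94874976, and Cldn5 on chromosome 16 from 18776847 to 18778262, all on the plus strand. On the minus strand lie Flt1 (chromosome 5, 147561604 to 147726011), Kdr (chromosome 5, 75932827 to 75978458), Pecam1 (chromosome 11, 106654217 to 106750628), Sox17 (chromosome 1, 4490931 to 4497354) and Slco1a4 (chromosome 6, 141805440 to 141856199). Cdh5 and Sox17 each overlap a gene on the other strand with at most 3 counts in all.

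The promoters below are shown because Notch4 was the gene of the list with the largest difference, and Tek and Kdr, which each hold one of the 2 motifs searched, had log2FC values of −0.12. RefSeq start sites on GRCm38.p6 were matched for 6 of the 10 genes (Notch4, Cldn5, Flt1, Tek, Kdr and Slco1a4). The 250 bases before the start are printed 5′ to 3′ on the strand of the gene, with the motif CAGGAA, the second motif CCGGAA and their reverse complements in capitals. Both motifs contain GGAA, the core of the sites that ETS factors such as Erg and Fli1 bind.
Notch4 promoter, chr17:34564045-34564294, plus strand: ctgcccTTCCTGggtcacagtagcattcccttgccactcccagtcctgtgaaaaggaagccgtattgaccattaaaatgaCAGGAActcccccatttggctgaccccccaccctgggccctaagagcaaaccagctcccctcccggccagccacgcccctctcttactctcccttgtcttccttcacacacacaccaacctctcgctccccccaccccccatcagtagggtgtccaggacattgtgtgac
Tek promoter, chr4:94739039-94739288, plus strand: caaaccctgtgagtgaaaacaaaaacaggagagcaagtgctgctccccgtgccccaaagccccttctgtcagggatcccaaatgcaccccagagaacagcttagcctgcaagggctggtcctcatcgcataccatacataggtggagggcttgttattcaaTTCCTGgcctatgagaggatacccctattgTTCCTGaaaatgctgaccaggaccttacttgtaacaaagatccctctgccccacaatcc
Kdr promoter, chr5:75978456-75978705, minus strand: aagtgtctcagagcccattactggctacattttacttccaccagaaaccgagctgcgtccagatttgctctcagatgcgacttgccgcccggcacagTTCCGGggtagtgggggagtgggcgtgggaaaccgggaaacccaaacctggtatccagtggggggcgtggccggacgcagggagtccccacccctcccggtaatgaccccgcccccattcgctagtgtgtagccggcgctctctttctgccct

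On either strand of the full windows, which add 50 bases after the start, CAGGAA was present in Notch4 and Tek and CCGGAA in Kdr, so 3 of the 6 promoters held one of the motifs. Among all 32851 promoters of the table, 30.6% held CAGGAA, 14.9% held CCGGAA and 41.4% held at least 1 of them. Cldn5, Flt1 and Slco1a4 held neither. A match is a description of the letters only.

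The other 8 genes had overlapping values in the 2 genotypes, and all 8 log2FC values were between −0.16 and 0.00. Flt1 and Kdr, the vascular endothelial growth factor receptors, were at 156 ± 14.8 and 88.3 ± 13.9 cpm in WT mice (SD, n = 4) and at 149 ± 9.89 and 81.3 ± 8.22 cpm in KO mice (SD, n = 5). Their log2FC values were −0.07 (SE 0.08) and −0.12 (SE 0.12). Flt1 had 124 to 148 counts in WT and 138 to 164 in KO libraries, and its SE was the smallest of the 10. Tek, the angiopoietin receptor, was at 21.1 ± 4.75 and 19.3 ± 6.20 cpm, with a log2FC of −0.12 (SE 0.27).

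Among genes for junctions between endothelial cells, Cldn5, the main claudin of the blood-brain barrier, had 30, 29, 45 and 27 counts in WT and 60, 36, 33, 29 and 31 counts in KO mice. KO replicate 1 was alone at 60.1 cpm, and the other KO mice were between 30.0 and 34.0 cpm. The log2FC was −0.02 (SE 0.24), and it was −0.25 without that mouse. Cdh5, which encodes VE-cadherin, had 20, 24, 24 and 14 counts in WT and 28, 23, 32, 9 and 15 counts in KO mice. KO replicates 4 and 5 were low, and the log2FC of −0.16 had the largest SE of the 10, 0.31. Pecam1, an adhesion molecule of endothelial junctions, was at 51.5 ± 10.1 cpm in WT and 48.2 ± 8.29 cpm in KO mice, with a log2FC of −0.10 (SE 0.17).

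Sox17, a transcription factor of arterial endothelium, was at 19.1 ± 3.80 and 19.0 ± 5.69 cpm, and its log2FC was 0.00 (SE 0.27). Slco1a4, an organic anion transporter of the blood-brain barrier, was at 100.3 ± 7.34 and 99.7 ± 8.91 cpm, with a log2FC of −0.01 (SE 0.09). Slco1a4 belongs to a family of similar genes, and how reads shared within the family were counted is not given in the sources used here.

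**Figure D2:**
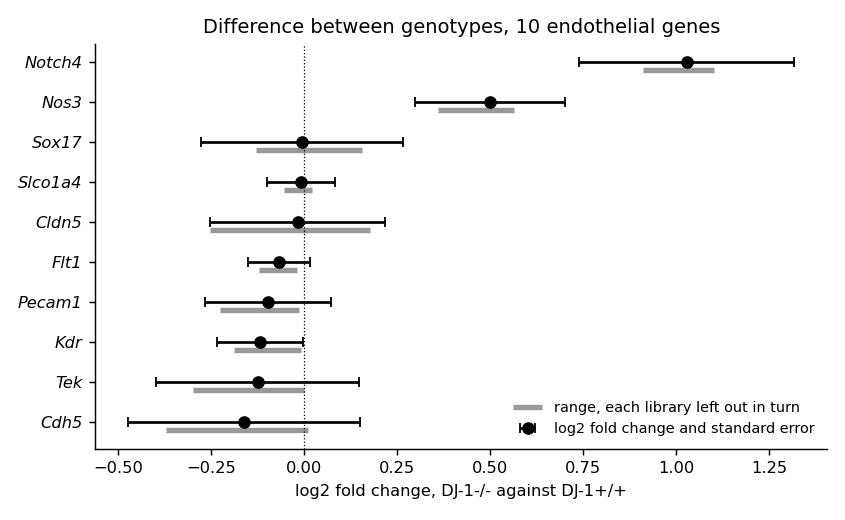
Log2 fold change (log2FC) of KO against WT mice for each of the 10 endothelial genes (horizontal axis), with points and black bars for the fitted value and its SE and grey bars for the range over fits that each drop 1 library. The grey bars of Notch4 (0.91 to 1.10) and Nos3 (0.36 to 0.56) are above 0. Dropping 1 library cannot reverse the sign of a gene whose genotypes do not overlap. The fitted values of the other 8 genes are between −0.16 and 0.00.

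In level, averaged over the 9 libraries, the genes ran from 152 cpm for Flt1 through 99.9 cpm for Slco1a4, 84.4 cpm for Kdr, 49.7 cpm for Pecam1, 37.6 cpm for Cldn5, 29.5 cpm for Nos3, 22.3 cpm for Cdh5, 20.1 cpm for Tek and 19.0 cpm for Sox17 to 12.8 cpm for Notch4. Between neighbours in this order, the ranges over the mice were separate for Flt1 above Slco1a4 and for Kdr above Pecam1. All other neighbours overlapped, and Cdh5 was above Tek in 4 of 9 mice. The variance between mice of one genotype also differed among the genes. It was 3.46 times that of counting error for Cldn5 and 2.95 times for Cdh5, but 0.908 times for Flt1, 0.807 times for Nos3 and 0.659 times for Slco1a4.

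Notch4 and Nos3 were next set against the other 8 genes of the list within each library, a grouping made after their values were seen, in which the library total cancels. The 8 genes together were at 498 ± 49.7 cpm (SD, n = 4) in WT and 475 ± 39.3 cpm (SD, n = 5) in KO mice. For every 100 counts of the 8 genes there were 1.25 to 1.93 counts of Notch4 in WT and 2.48 to 4.57 in KO mice. For Nos3 there were 3.58 to 5.78 in WT and 6.03 to 7.91 in KO mice. Neither gene overlapped between genotypes on this scale. Both genes already separated in cpm, and the sum of the 8 genes overlapped between genotypes. The ratios therefore largely restate the difference on which the list was selected, and nothing further is read from them.

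**Figure D3:**
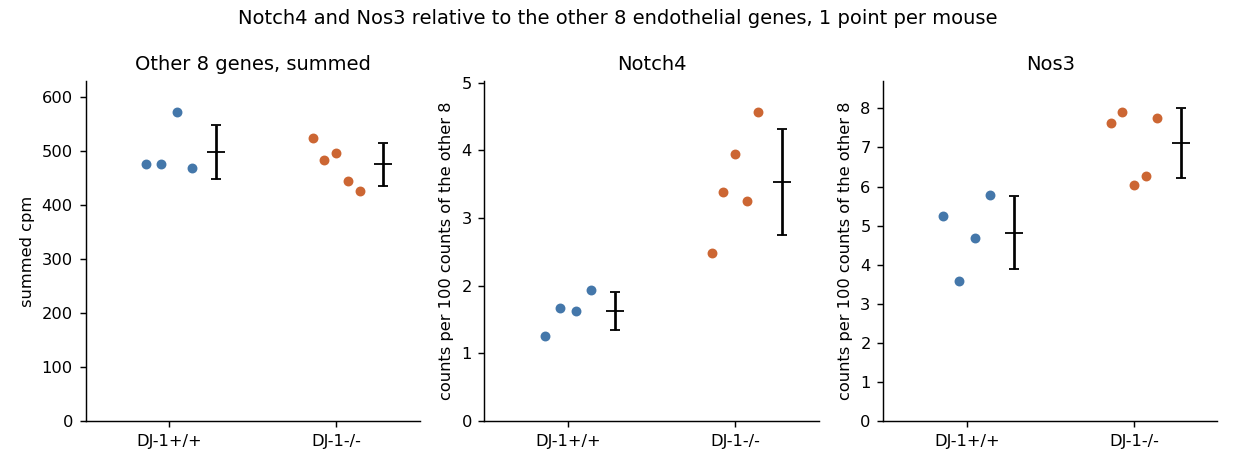
Left, the summed cpm of the 8 endothelial genes other than Notch4 and Nos3, and middle and right, the counts of Notch4 and Nos3 per 100 counts of those 8 genes, with 1 point per mouse and the mean and SD as bars. The summed level overlaps between genotypes (468 to 572 and 427 to 525 cpm), while both ratios are higher in every KO mouse than in any WT mouse. Both genes already separate in cpm, so the ratios largely restate that difference.

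The profile of each gene over the 9 libraries was compared as z-scored log2(cpm + 1), by the root mean square difference, where a smaller value is more alike. Of the 45 pairs among the 10 genes, Pecam1 and Slco1a4 were the most alike (0.768), and Notch4 and Nos3 ranked 5 of 45 (0.849). Against the other 8 genes, the differences of Notch4 were between 1.41 and 1.61. Over the 10920 other genes with a mean of at least 20 cpm the median difference from Notch4 was 1.40, and the 5 most alike were Cand1 (0.297), Gm47163 (0.339), Rbms3 (0.376), Mrpl32 (0.401) and Pdcd5 (0.414). For the summed cpm of the 10 genes the most alike were Mapk11 (0.243), Acbd6 (0.343), Efhd2 (0.361), Eci2 (0.363) and Atp8a2 (0.396). These are descriptions over libraries that differ in depth and genotype. The profiles keep the difference between genotypes on which the list was selected. The likeness of Notch4 to Nos3, and its distance from the other 8 genes, therefore in part restate that difference.

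The genes around the 10 were then counted from lists set out by function. Over 7 lists (other endothelial genes, blood-brain barrier, arterial, venous and activated endothelial, Notch, VEGF and angiopoietin, and nitric oxide) there were 132 further genes. Of these, 127 passed the filter of at least 10 counts. None had an adjusted p under 0.05 by the quasi-likelihood test of edgeR or in DESeq2. With no adjustment 5 had a p under 0.05 in edgeR, 3 higher and 2 lower in KO mice, and 1 in DESeq2. That is 3.94% of the 127, beside 2.83% of all genes tested (1.57% higher and 1.26% lower). The genotypes did not overlap for 1 gene higher and 2 genes lower in KO mice, where 1.25% of all genes tested did not overlap in either direction. The median log2FC of the 127 genes was 0.05, and that of all genes tested was 0.01.

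Of 29 Notch pathway genes, all 29 were tested and none had an unadjusted p under 0.05 by edgeR. Their median log2FC was 0.06, with 18 higher and 11 lower in KO mice. The extremes among genes of at least 10 cpm were 0.36 (SE 0.20) for Heyl, a transcriptional repressor induced by Notch, and −0.35 (SE 0.29) for Ncstn, a subunit of the γ-secretase that cleaves Notch. Of genes named for their role and outside the naming rule, the receptors Notch1, Notch2 and Notch3 had log2FC values of 0.13, 0.09 and −0.21, and the endothelial ligand Dll4 had 0.00.

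Of 16 nitric oxide pathway genes, 15 were tested and 1 had an unadjusted p under 0.05. It was Cav1, which encodes caveolin-1, a scaffold protein that binds endothelial nitric oxide synthase. Cav1 had 30, 23, 31 and 24 counts in WT and 51, 61, 41, 30 and 43 counts in KO mice, and the genotypes overlapped in cpm. Its log2FC was 0.51 (SE 0.20, unadjusted p = 0.0187 by edgeR). The lowest was Prkg1, the cyclic GMP-dependent kinase, at −0.11 (SE 0.24), and the median of the list was 0.02.

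Of 16 VEGF and angiopoietin genes, all 16 were tested and 3 had an unadjusted p under 0.05 by edgeR, where 2.83% of all genes tested did. Flt4, the receptor for Vegfc, had 4, 6, 4 and 2 counts in WT and 8, 12, 8, 7 and 9 counts in KO mice, near the level of 3 counts. Its log2FC was 0.89 (SE 0.39), and the genotypes did not overlap. Vegfc, one of its ligands, was at 16.6 to 22.1 cpm in WT and 9.30 to 16.5 cpm in KO mice, ranges that do not overlap but nearly touch, with a log2FC of −0.56 (SE 0.26). Ptprb, a phosphatase that acts on Tek, had a log2FC of 0.21 (SE 0.10), with overlapping genotypes. Pgf, placental growth factor, had the highest log2FC among genes of at least 10 cpm, 0.47 (SE 0.30). The list had 8 genes higher and 8 lower, and a median of 0.03.

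Of 26 other endothelial genes, all were tested, and 22 were higher and 4 lower in KO mice. Of all 18127 genes tested, 9412 were higher and 8715 lower. The median log2FC of the 26 was 0.13, beside 0.01 for all genes tested and −0.04 for the 10 genes. Whether the list as a whole differed was not tested. Ptprb was the single gene of these with an unadjusted p under 0.05 by edgeR. The extremes that were named by the rule were Erg, an ETS factor of endothelium, at 0.49 (SE 0.31), and Sox18, a relative of Sox17, at −0.84 (SE 0.64). Sox18 had 19, 3, 27 and 13 counts in WT and 19, 4, 23, 2 and 2 in KO mice. WT replicate 2 and KO replicates 2, 4 and 5, most of the KO mice, were thus near 3 counts.

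The 27 blood-brain barrier genes, all tested, had a median of 0.01, with 15 higher and 12 lower, and no gene with an unadjusted p under 0.05 by edgeR. The extremes were Pglyrp1, a peptidoglycan-binding protein, at 0.39 (SE 0.32), and Lef1, a transcription factor of Wnt signalling, at −0.29 (SE 0.60). Lef1 had 111 counts in WT replicate 4 and 95 in KO replicate 5, and 8 to 31 in the other mice. Of 12 arterial genes, 11 were tested and Alpl, alkaline phosphatase, had an unadjusted p under 0.05, with a log2FC of −0.68 (SE 0.30) and ranges of 14.7 to 16.6 cpm in WT and 5.85 to 14.0 cpm in KO mice, which do not overlap. The highest arterial gene by the rule was Gkn3, at 0.28 (SE 0.27), and 4 were higher and 7 lower. Of 10 venous and activated endothelial genes, 7 were tested, and none had an unadjusted p under 0.05 by edgeR. The extremes among genes of at least 10 cpm were Vwf, von Willebrand factor, at 0.31 (SE 0.31) and Ackr1, the atypical chemokine receptor of venules, at −0.24 (SE 0.12). Icam1, with a mean of 3.22 cpm, was the lowest of the list at −0.63 (SE 0.49).

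**Figure D4:**
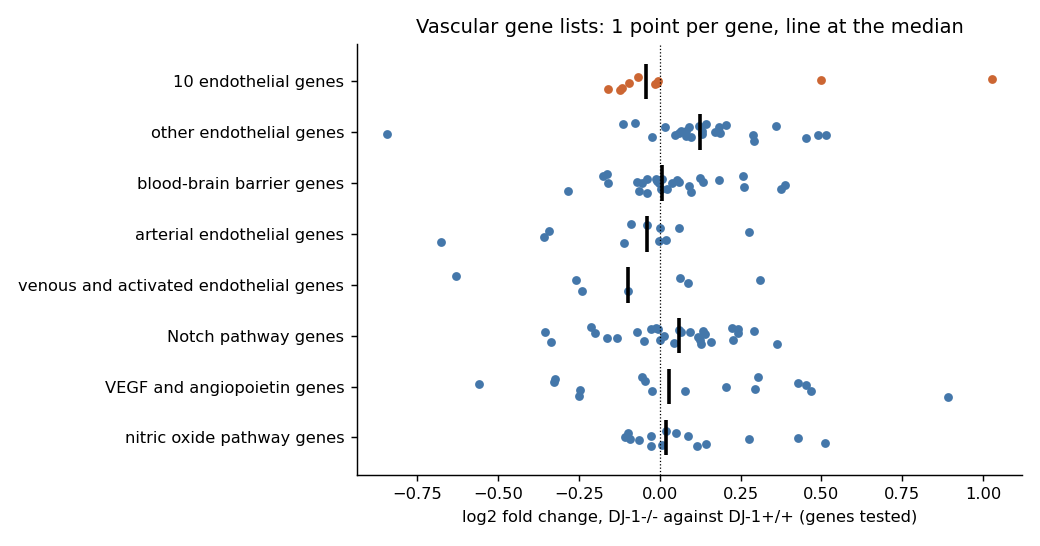
Log2 fold change (log2FC) of KO against WT mice (horizontal axis) for the tested genes of each vascular list, 1 point per gene, with a black line at the median and the 10 endothelial genes in orange. The 2 orange points at 0.50 and 1.03 are Nos3 and Notch4, and the medians of the 8 lists are between −0.10 and 0.13.

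Markers of other cells were summed per mouse to see what moved with the 10 genes, whose own sum was 501 to 608 cpm in WT and 479 to 578 cpm in KO mice. The 15 mural cell markers (pericytes and smooth muscle, the cells around the endothelium), all tested, summed to 483 to 539 cpm and 426 to 555 cpm, with 9 higher and 6 lower. The fibroblast and meningeal markers, 9 of 10 with a count and Igf2 with none, summed to 323 to 508 cpm and 336 to 492 cpm, with 4 higher and 5 lower. The blood markers, 5 of 5 tested, summed to 432 to 664 cpm and 382 to 525 cpm, with 1 higher and 4 lower. Sums overlapped between genotypes also for microglia (645 to 671 and 616 to 732 cpm), astrocytes (1867 to 2162 and 1870 to 2133 cpm) and oligodendrocytes (2153 to 2854 and 2391 to 2754 cpm).

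Tissue other than vessels differed more between mice. All 15 choroid plexus markers, from an epithelium with capillaries of its own, were lower in KO mice, and their sum was 1402 cpm in WT replicate 4, 703 cpm in replicate 1 and 401 to 548 cpm in the other 7 mice. All 8 cerebellar neuron markers were lower, with a sum of 1305 cpm in WT replicate 1 and 410 to 595 cpm in the other mice. All 10 dopaminergic neuron markers were higher, with sums of 538 to 980 cpm in WT and 761 to 1049 cpm in KO mice. None of these markers had an adjusted p under 0.05 by edgeR with genotype as the single term and all libraries kept. With no adjustment 8 choroid plexus and 4 cerebellar markers were lower and 3 dopaminergic markers higher at p under 0.05 in that fit. Of all genes tested, 1.26% were lower and 1.57% higher at that level. In alternative edgeR fits, the cerebellar marker Gabra6 had an adjusted p under 0.05 with the replicate block. The dopaminergic marker Slc6a3 did so without WT replicate 2. The part of these markers in the differences of Notch4 and Nos3 was not tested. Without WT replicates 1 and 4, an alternative chosen after seeing the data, the log2FC was 0.94 for Notch4, 0.63 for Nos3 and −0.25 for Kdr. That alternative kept KO replicate 5, which resembled WT replicate 4 in Lef1 and Gch1.

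**Figure D5:**
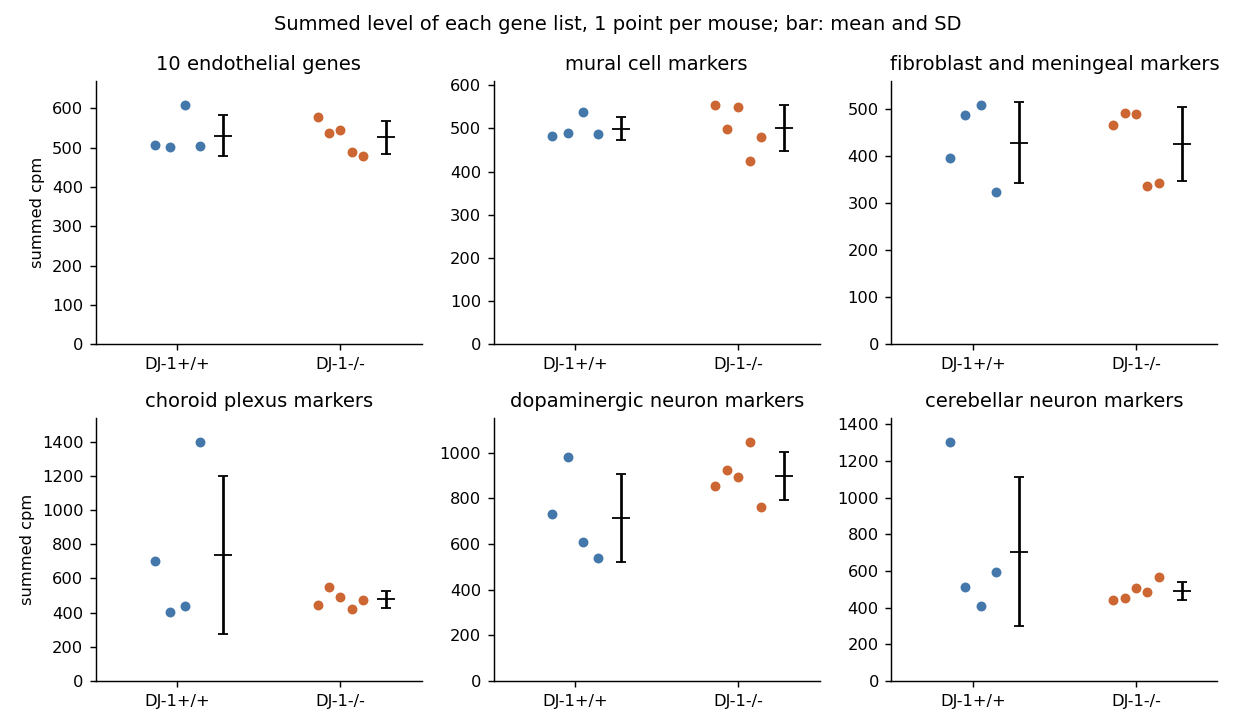
Summed cpm (vertical axis, from 0) of the 10 endothelial genes and of 5 lists of markers, with 1 point per mouse and the mean and SD as bars. The endothelial and mural sums overlap between genotypes, and single WT mice reach 1402 cpm for choroid plexus and 1305 cpm for cerebellar neuron markers.

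Xist had 146 to 193 counts in WT replicates 2 and 3 and KO replicates 1 to 4, and 0 to 2 counts in WT replicates 1 and 4 and KO replicate 5, in which the Y-linked gene Ddx3y had 113 to 152 counts. Among mice with Xist, Notch4 was at 7.96 and 9.31 cpm in WT and at 13.0 to 19.6 cpm in KO mice. Among mice without it, Notch4 was at 5.94 and 9.03 cpm in WT and at 19.5 cpm in the KO mouse. Nos3 was at 17.0 and 26.8 cpm against 27.9 to 40.0 cpm with Xist, and at 24.9 and 27.1 cpm against 33.1 cpm without. Neither gene overlapped between the genotypes over all mice, so any subset of the mice had to separate too. Nothing is read from the separation within these subsets.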

How the data were processed

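RNA from midbrain tissue of 4 DJ-1+/+ and 5 DJ-1-/- mice was made into QuantSeq 3′ mRNA-seq libraries from 100 ng of total RNA. The authors deposited one UMI count per gene and mouse, in whole numbers and not normalized, and the tables leave out genes at 0. The submitters' processing notes name fastp 0.20.0, STAR 2.7.3a, featureCounts 2.0.0 (Subread), UMI-tools 1.0.0 and GRCm38. Options and strand setting are not given in the sources used here.

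Genes missing from a table were set to 0. Of 26602 identifiers, 26576 are in GENCODE M21 (GRCm38). The fit took in the 18127 genes whose 9 libraries summed to 10 counts or more, and used edgeR 4.0.16 (estimateDisp, glmQLFit, glmQLFTest) with TMM factors under R 4.3.3, genotype as the single term and Benjamini-Hochberg adjustment. The standard error is the log2 fold change divided by the square root of F. Scripts were tested on simulated data. Figures used matplotlib 3.10.9.

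The 10 genes and the lists were chosen with earlier results of these data known. Genes named are the 10, Park7, genes of each list with an unadjusted p under 0.05, the highest and lowest log2 fold change of each list among genes of at least 10 cpm, and the 5 profiles most like Notch4 and the summed 10. Others are named for their role or after their values were seen. For the lists of other cells sums and counts are given, and Gabra6 and Slc6a3 are named from alternative fits. Replicate numbers come from the labels, and each p-value sets the difference between genotypes against the spread between mice. Between pairs of libraries of one genotype the chi-square per degree of freedom over genes was 1.07 to 2.27, and every library was kept as a separate mouse. Alternatives were RLE size factors, library totals, DESeq2 1.42.0, other filters, thinned counts, Xist as a covariate, the replicate block and each library left out.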

Additional observations from a re-analysis of the deposited data

Results flagged for a closer look

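Of 56 groups of 4 or 5 mice examined, 4 held a highest or lowest mouse whose gap to the nearest mouse, as a share of the range of its genotype, exceeded Dixon's critical value, where chance gives 2.8 at 1 in 20. The test takes the gap relative to the range, and the WT sums of cerebellar (410 to 1305 cpm) and choroid plexus markers (401 to 1402 cpm) spread more widely without exceeding it. Cldn5 was at 60.1 cpm in KO replicate 1, against 30.0 to 34.0 cpm in the other KO mice. The blood-brain barrier genes of the same mouse summed to 2152 cpm, against 1985 to 2032 cpm in the others. In WT replicate 3 the 10 endothelial genes summed to 608 cpm, against 501 to 506 cpm in the other WT mice, and the mural cell markers to 539 cpm, against 483 to 489 cpm.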

How the results depend on the processing

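Over 18 alternatives Notch4 was between 0.91 and 1.10 and Nos3 between 0.36 and 0.63 on the log2 scale. Every KO mouse was above every WT mouse in both genes, so leaving out libraries could not change their sign. Nothing is read from the sign they kept. Of the other 8 genes, Cldn5, Slco1a4, Sox17, Cdh5 and Tek changed sign in 6, 6, 5, 1 and 1 of the 18. The median log2 fold change of the 10 genes was −0.04 and ran from −0.13 with Xist as a covariate to 0.01 with the replicate block. Same-numbered mice are not stated to be paired, the correlation of their deviations was between −0.10 and 0.18, and 1 of 4 WT mice correlated best with its own number.

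In edgeR, 1 gene had an adjusted p under 0.05 (Park7), and the number was 36 with no filter on low counts, 8 with the replicate block, and 1 to 2 with each library left out. The count with an unadjusted p under 0.05 was 513, of which 285 were higher in KO mice. It was 802 with no filter on low counts, 338 with filterByExpr (fewer genes were tested), 235 with DESeq2 and 338 to 732 with each library left out, the 338 without KO replicate 2. With RLE size factors 256 were higher and 280 lower, and with DESeq2 106 and 129. The causes were not tested. No gene of the wider lists had an adjusted p under 0.05 in edgeR's test in any alternative or in DESeq2, and those with an unadjusted p under 0.05 numbered 5, and from 1 with DESeq2 to 8 without WT replicate 2. Depth limits the precision of Notch4, Flt4 and Dll4, whose WT libraries each held fewer than 10 counts.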
